A study of Mus musculus with 4 samples.

Results

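Siglecs are receptors of white blood cells that bind sialic acid, the sugar that caps most glycans of a cell surface. Many of them, like the paired immunoglobulin-like, leukocyte immunoglobulin-like and CEACAM receptors described beside them, carry an immunoreceptor tyrosine-based inhibitory motif (ITIM) in the cytoplasmic tail. Once phosphorylated by Src-family kinases, an ITIM recruits the phosphatases SHP-1 (Ptpn6), SHP-2 (Ptpn11) or SHIP-1 (Inpp5d), which damp signals from activating receptors. Activating relatives of the same families have short tails and signal through the adaptors DAP12 (Tyrobp) or the Fc receptor gamma chain (Fcer1g).

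The 10 genes described here were matched by exact symbol in a deposited table of 24497 mouse entries: Siglece, Siglecf, Siglecg, Siglech, Cd33, Pirb, Lilrb4a, Lilr4b, Ceacam1 and Pilra. They are not all ITIM receptors. Siglech and Lilr4b have no ITIM and are included as the close relatives of those that do, and mouse Cd33 lacks the membrane-proximal ITIM of its human counterpart. RNA-seq compared 2 libraries of leukemic cells of wild-type (WT) origin with 2 labelled Tet2 knockout (Tet2 KO), from hematopoietic stem cells of Tet2-/- mouse bone marrow in which exons 8 to 10 of Tet2 are missing. All 4 carried NRAS and the AML1-ETO9a (AE9a) fusion, an acute myeloid leukemia (AML) model, and were grown alike in RPMI medium. The medium held the cytokines IL-6 (10 ng/ml), IL-3 (10 ng/ml) and SCF (50 ng/ml), and puromycin (2 µg/ml) and G418 (1 mg/ml) for selection. No further treatment was given. The labels do not state how many lines, clones or animals stand behind a group, so p-values reflect only how far these libraries scatter, which can be technical scatter.

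Values are TPM, a level scaled to transcript length and to the library's total. A change is the difference in log2(TPM + 1), Tet2 KO label minus WT, with the moderated standard error (SE) from limma, and a gene was called at an adjusted p under 0.05 over the 11837 genes that reached 1 TPM in 2 or more libraries. Tet2 itself had 35.05 and 39.95 TPM in WT and 53.53 and 52.79 TPM in the knockout-labelled libraries, and a whole-gene value cannot check a deletion of exons 8 to 10, so directions below follow the labels. Transcripts of the myeloid and progenitor genes Mpo, Itgam and Cd34 were present in all 4 libraries, while the T cell and NK cell markers Cd3e and Ncr1 were listed at 0. Of 13 tested mast cell and basophil markers 7 fell and 2 rose. The summed level of that list did not fall, at 2111 and 2192 TPM in WT and 2257 and 2198 TPM in the knockout-labelled libraries. Of 6 tested erythroid and megakaryocyte markers 1 fell and 2 rose, while the 1 tested T and NK marker, Lck, did not pass. The mast cell and basophil counts were 6 lower and 1 higher without Tet2 KO replicate 1 and 6 and 0 without replicate 2. The erythroid counts were then 1 lower and 3 higher, and 2 and 2. Of the 12 leukemia identity genes 6 rose and 4 fell, 3 and 4 with spike-in scaling, 4 and 2 without Tet2 KO replicate 1 and 2 and 3 without replicate 2. Of all tested genes, 30.5% were called, 18.9% higher and 11.6% lower, and 68.6% had groups that did not overlap. Calls fell from 3606 genes to 1015 without Tet2 KO replicate 1 and to 1059 without Tet2 KO replicate 2.

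Most of the 10 genes lie in clusters of duplicated genes. Siglecf (43351341 to 43359531, plus strand), Siglecg (43408204 to 43418358, plus strand), Cd33 (43524216 to 43544428, minus strand) and Siglece (43651070 to 43660161, minus strand) lie within 308.8 kb between gene starts on chromosome 7 (GRCm38, the mm10 build). Siglech is on the same chromosome at 55768178 to 55778925. The upstream sequences of the Siglec genes with the largest changes and of Ceacam1 are shown because these 4 genes moved in both directions by the largest amounts. Each is the 250 bases before the RefSeq start in GRCm38.p6, written 5′ to 3′ on the gene's strand. Capitals mark GAGGAA or its reverse complement TTCCTC, a core of the sites bound by the myeloid factor PU.1.
Siglece, chr7:43660162-43660411, minus strand: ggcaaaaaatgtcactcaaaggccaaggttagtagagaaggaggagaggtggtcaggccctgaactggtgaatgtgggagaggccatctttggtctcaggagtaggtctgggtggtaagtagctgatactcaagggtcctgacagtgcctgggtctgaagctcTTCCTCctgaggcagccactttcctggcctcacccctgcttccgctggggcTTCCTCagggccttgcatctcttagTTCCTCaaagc
Siglecf, chr7:43351091-43351340, plus strand: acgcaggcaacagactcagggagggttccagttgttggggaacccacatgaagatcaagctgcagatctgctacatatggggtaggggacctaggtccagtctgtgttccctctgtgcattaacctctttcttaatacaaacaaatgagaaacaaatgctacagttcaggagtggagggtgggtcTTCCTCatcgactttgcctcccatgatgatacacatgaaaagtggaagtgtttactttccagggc
Siglecg, chr7:43407989-43408238, plus strand: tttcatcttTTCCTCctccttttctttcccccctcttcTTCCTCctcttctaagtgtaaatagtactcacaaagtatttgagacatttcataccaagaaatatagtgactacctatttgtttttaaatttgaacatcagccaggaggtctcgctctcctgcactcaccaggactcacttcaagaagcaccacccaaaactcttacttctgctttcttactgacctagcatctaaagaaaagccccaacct
Ceacam1, chr7:25477626-25477875, minus strand: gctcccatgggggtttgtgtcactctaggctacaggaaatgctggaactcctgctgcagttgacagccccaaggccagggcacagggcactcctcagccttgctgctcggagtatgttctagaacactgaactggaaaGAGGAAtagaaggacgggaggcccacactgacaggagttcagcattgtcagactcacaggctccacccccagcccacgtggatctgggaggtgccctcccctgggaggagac

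Of the 10 genes, 9 had such a sequence, in 10 windows, and 7 of the 9 held GAGGAA on either strand. Of 32851 mouse promoter windows of the same length 23.3% did. A gene was counted if any of its windows matched, while the shares of all windows count each window singly. Siglece had 3 matches, Siglecg 2 at the start shown and none at a second listed start, and Siglecf and Ceacam1 1 each. The RUNX core TGTGGT was found in 3 of the 9 (14.0% of all windows), TTGCNNAA, a C/EBP form, in 2 (9.56%), and a form of the interferon-stimulated response element, which can share letters with GAGGAA, in 1 (2.98%). These are letter matches on both strands, not sites of binding. The windows of all 9 held 5 or fewer CpG dinucleotides, the sites where DNA methylation occurs and on whose methylated form Tet2 acts, as did 49.6% of all windows. Siglece and Siglecg had 1 CpG each, Siglecf 2 and Ceacam1 3, against a median of 6 over all windows. Methylation was not measured in these data.

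The levels of the 10 genes spanned from none to among the highest in the cells. Lilrb4a averaged 986 TPM over the 4 libraries, above 98.7% of tested genes, and Lilr4b 446 TPM, above 97.6%. Pirb (178 TPM) and Cd33 (169 TPM) followed, Pirb slightly above Cd33 in every library. Below them came Ceacam1 (77.6 TPM), Siglecf (40.3), Pilra (31.7), Siglece (23.9) and Siglecg (3.85). The order of Siglecf, Siglece and Pilra depended on the group: in WT the 3 genes lay together between 30.9 and 36.5 TPM, and in the knockout-labelled libraries Siglecf stood above Pilra and Pilra above Siglece. Siglech was listed at 0 in both WT libraries and at 0.04 and 0.08 TPM in the others. It was the only 1 of the 10 below the filter, and the other 9 exceeded 1 TPM in all 4 libraries.

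**Figure D1:**
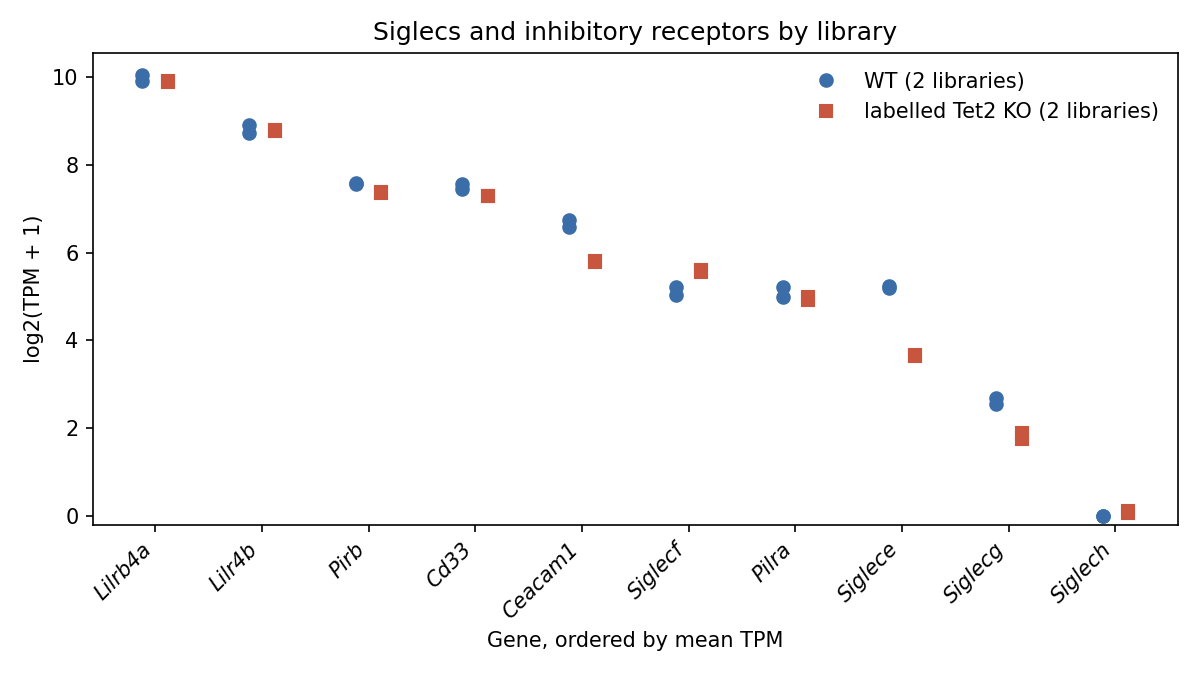
Levels of the 10 genes in each library as log2(TPM + 1), with WT libraries as circles and knockout-labelled libraries as squares, ordered by mean TPM. The groups stand clearly apart for Siglece (36.5 and 35.9 against 11.4 and 11.7 TPM) and Ceacam1, while those of Lilrb4a, Lilr4b and Pilra overlap.

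Among the 9 tested genes, Siglece, Ceacam1, Siglecg, Cd33 and Pirb fell and Siglecf rose, and Lilrb4a, Lilr4b and Pilra did not pass. The 5 falls stand beside 11.6% of all tested genes called lower and the single rise beside 18.9% called higher. The median change of the 9 was -0.21 against 0.04 for all tested genes. The 6 called genes had groups that did not overlap, a share of the 9 close to the 68.6% of all tested genes, and the other 3 overlapped. Without replicate 1 or replicate 2 of the Tet2 KO group, 3 genes were called lower and 0 higher: Siglece, Ceacam1 and Siglecg kept their calls, and Siglecf, Cd33 and Pirb did not. Their directions were the same in all those fits.

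**Figure D2:**
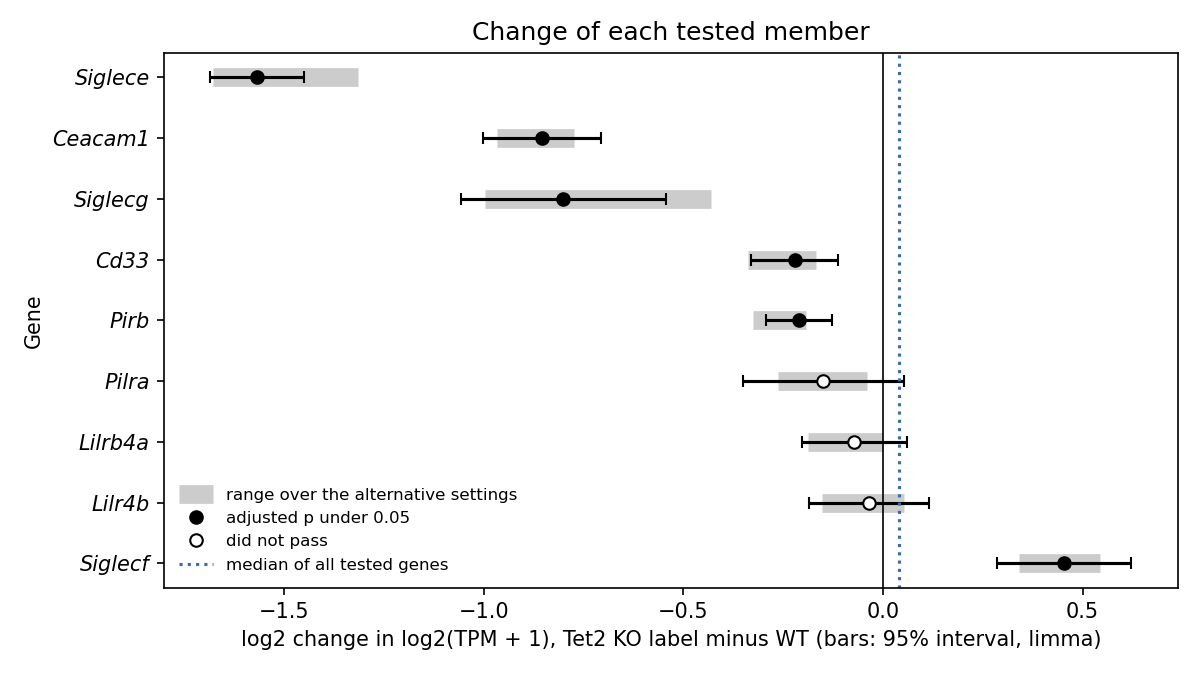
Change of the 9 tested genes in log2(TPM + 1), Tet2 KO label minus WT, with 95% limma intervals (black bars) and the range over the alternative settings (grey). Siglece lies farthest from 0 at -1.57, Siglecf alone lies above 0 with its whole interval, and the intervals of Pilra, Lilrb4a and Lilr4b include 0.

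Siglece, an ITIM receptor of neutrophils, monocytes and macrophages, had the largest change of the 9. It had 36.5 and 35.9 TPM in WT and 11.4 and 11.7 TPM in the knockout-labelled libraries. Both knockout-labelled values were about equal and far below both WT values, with means of 36.2 ± 0.45 and 11.6 ± 0.21 TPM (SD, n = 2 each), a ratio of 3.13 in TPM. The log2 change was -1.57 (SE 0.047, 95% interval -1.69 to -1.45, adjusted p = 7.7e-05), and 60 of 11837 tested genes had a more negative change. None of the 50-base windows of the transcript compared occurred in another gene's transcripts in the GENCODE annotation.

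Most granulocyte markers moved the same way as Siglece. Of 30 markers 25 fell and 1 rose (median -0.71), beside 11.6% lower and 18.9% higher over all tested genes. The summed level of the markers was 103992 to 106253 TPM in WT and 63387 to 63818 TPM in the knockout-labelled libraries. The riser was Mpo, from 731 and 758 to 990 and 1037 TPM (0.44, adjusted p = 0.0015). Csf3r, Prtn3, Ctsg and Ltc4s did not pass on the deposited values. The defining markers Ngp (-1.68), Camp (-2.15), Ltf (-0.92), S100a8 (-0.97) and S100a9 (-0.92) all fell, although S100a9 did not pass with quantile scaling (-0.38, adjusted p = 0.069). The smallest p of the granulocyte list was that of Chil3, which fell from 587 and 593 to 68.0 and 62.0 TPM (-3.16, adjusted p = 8.2e-06). Of 21 tested monocyte and macrophage markers 8 fell and 5 rose. The 5 became 2 with spike-in scaling, and 3 and 2 without Tet2 KO replicate 1 and replicate 2. The mannose receptor gene Mrc1 (-2.08, adjusted p = 1.6e-05) and the beta-glucan receptor gene Clec7a (-1.89, adjusted p = 5.5e-05) fell most in that list, and the chemokine receptor gene Ccr2 rose (0.94, adjusted p = 3.6e-04). The list had sums of 4493 to 4646 and 3533 to 3545 TPM. Among its defining markers, Cd68 fell (-0.52), Csf1r did not pass (-0.08, adjusted p = 0.20) unless TPM were rescaled without the granulocyte markers (-0.14, adjusted p = 0.048), and Adgre1 rose (0.21, adjusted p = 0.0061), a call lost with spike-in scaling (0.10, adjusted p = 0.45) and without either knockout-labelled library (adjusted p = 0.086 and 0.069). Of the 22 listed 1 was at 0 in all libraries. In bulk RNA, fewer cells of a type and less transcript per cell cannot be told apart, and the part of these markers in the fall of Siglece was not tested.

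Siglecf was the only tested gene of the 10 that rose. It is an ITIM receptor best known from eosinophils and alveolar macrophages. It had 31.8 and 36.0 TPM in WT and 47.6 and 45.9 TPM in the knockout-labelled libraries, so that the lower knockout-labelled value stood above the higher WT value. The log2 change was 0.45 (SE 0.067, 95% interval 0.29 to 0.62, adjusted p = 0.0070), 1.38-fold in mean TPM, and 622 tested genes had a larger change. With either knockout-labelled library left out, the gene no longer passed at much the same size (0.43, adjusted p = 0.075, without replicate 1, and 0.48, adjusted p = 0.060, without replicate 2).

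The tested eosinophil markers moved the other way, beside 11.6% of all tested genes called lower. Of 15 listed 8 were tested and all 8 fell (median -1.05, and 7 without Tet2 KO replicate 1), with a summed level between 1775 and 1800 TPM in WT and between 1223 and 1245 TPM with the knockout label. Most of that sum was the chemokine gene Ccl6, with 1593 and 1625 TPM in WT and 1148 and 1124 TPM in the others. Cebpe, which is also in the granulocyte list, added 144 and 137 TPM and then 92.7 and 94.1 TPM. The chemokine gene Ccl24 fell from 13.8 and 12.7 to 0.22 and 0.46 TPM (-3.42, adjusted p = 1.2e-04). The granule protein gene Prg2 had 13.7 and 14.7 TPM in WT and 0.93 and 1.46 TPM in the others. The peroxidase gene Epx was at or below 0.33 TPM and the eotaxin receptor gene Ccr3 at or below 0.28 TPM in every library. Of these defining markers Prg2 was tested and fell, and Epx and Ccr3 were below the filter. The part of these markers in the rise of Siglecf was not tested.

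Siglecg, an ITIM receptor of B cells that also binds the glycoprotein CD24, was the lowest of the tested genes and fell. It had 5.46 and 4.86 TPM in WT and 2.38 and 2.69 TPM in the knockout-labelled libraries, groups that did not overlap. The log2 change was -0.80 (SE 0.10, adjusted p = 0.0046), and 2.04 was the ratio of mean TPM. The pseudocount weighs more on a gene this low: the change was -0.43 with a pseudocount of 5 (adjusted p = 0.0042) and -0.997 with 0.1 (adjusted p = 0.0048). Of its windows 8.7% occurred elsewhere, nearly all in the pseudogene Gm29791. The B cell markers Cd79a and Pax5 were at or near 0, at or below 0.35 TPM in every library. Of 15 listed entries 2 were tested, of which 1 rose and 1 fell (0 and 0 without either knockout-labelled library), and the list summed to 5.37 to 6.13 TPM over all 4. The gene of its ligand, Cd24a, had 335 and 355 TPM in WT and 261 and 255 TPM in the others, a fall of -0.42 (adjusted p = 0.0019).

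Cd33, the founding member of this Siglec group, had 175 and 189 TPM in WT and 155 and 156 TPM in the knockout-labelled libraries. The groups did not overlap, and the knockout-labelled values were lower by a small amount, a log2 change of -0.22 (SE 0.044, 95% interval -0.33 to -0.11, adjusted p = 0.017). Cd33 no longer passed without Tet2 KO replicate 1 (adjusted p = 0.13), without replicate 2 (adjusted p = 0.12) or without a variance trend (adjusted p = 0.054). Spike-in scaling gave a larger change of -0.34 (adjusted p = 0.012).

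Together the 4 clustered genes Cd33, Siglecf, Siglece and Siglecg summed to 249 and 266 TPM in WT and 217 and 217 TPM in the knockout-labelled libraries. Their makeup shifted more than their sum. Siglece made up 14.7% and 13.5% of the sum in WT and 5.27% and 5.40% in the others, while Siglecf made up 12.7% and 13.6% and then 22.0% and 21.2%. Cd33 held 70.4% to 72.2% in every library. The ratio of Siglecf to Siglece was 0.870 and 1.00 in WT against 4.17 and 3.92 under the knockout label. These shares and ratios are given as values and were not tested.

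**Figure D3:**
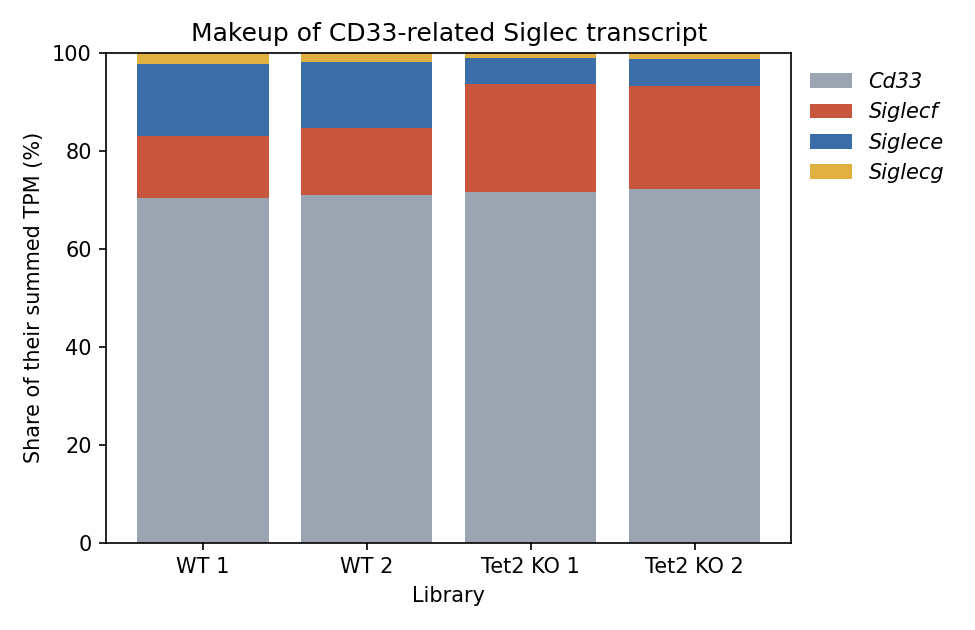
Share of each gene in the summed TPM of Cd33, Siglecf, Siglece and Siglecg in each of the 4 libraries, in percent. The Siglece band narrows from 14.7% and 13.5% in WT to 5.27% and 5.40%, the Siglecf band widens, and the Cd33 band stays near 71%.

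Neighbouring genes of the cluster did not move as a block. From 100 kb before Siglecf to 100 kb after Siglece, 14 of 21 listed genes were tested, of which 3 were called higher and 4 lower, the 4 Siglecs included, beside 18.9% higher and 11.6% lower over all tested genes. The other called genes, picked here for their position after their values were seen, were Nkg7 (0.63, adjusted p = 9.3e-04), Cldnd2 (0.92, adjusted p = 0.016) and Ceacam18 (-0.84, adjusted p = 0.0087). The last 2 stayed below 2 TPM and lost their calls without replicate 1 of the Tet2 KO group (adjusted p = 0.11 and 0.058) or replicate 2 (adjusted p = 0.074 and 0.051). Siglecf and Siglecg, whose starts are 56.9 kb apart on the same strand, went in opposite directions.

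**Figure D4:**
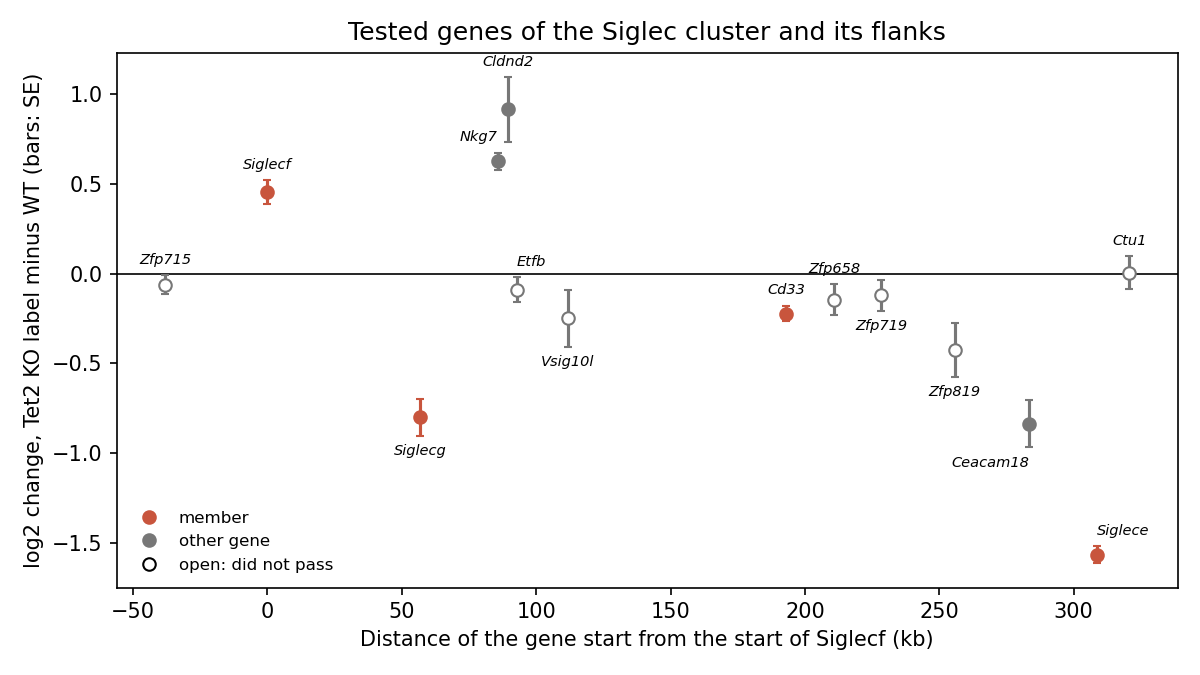
Change of the 14 tested genes of the Siglec cluster and 100 kb on either side, against the distance of each gene start from that of Siglecf in kb, with bars of 1 SE and open points for genes that did not pass. Rises (Siglecf, Nkg7, Cldnd2) and falls (Siglecg, Cd33, Ceacam18, Siglece) are interspersed along the cluster.

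Siglec genes outside the cluster were low. Siglec1 (sialoadhesin), a macrophage receptor without an ITIM, had 2.25 and 2.42 TPM in WT and 4.14 and 3.84 TPM in the others, a rise of 0.58 (adjusted p = 0.010) that did not pass without Tet2 KO replicate 1 (adjusted p = 0.080) or replicate 2 (adjusted p = 0.060). The myelin Siglec gene Mag did not pass (-0.12, adjusted p = 0.45), and Cd22 and Siglec15 stayed below 1 TPM and were not tested. Cd22 had 0.91 and 0.93 TPM in WT and 0.16 and 0.30 TPM in the others. Siglec15 had 0.08 and 0.39 TPM in WT and 0.38 and 0.33 TPM in the others. Siglech is a marker of plasmacytoid dendritic cells. Of 10 tested markers of those cells 9 rose (median 0.39), beside 18.9% of all tested genes called higher. That count was 4 with spike-in scaling, and 3 and 2 without replicate 1 and replicate 2 of the Tet2 KO group. Among their defining markers, Tcf4 had 11.6 to 17.6 TPM over the 4 libraries, while Spib and Ccr9 were at or below 0.19 TPM in all of them.

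Ceacam1, an adhesion receptor with ITIMs in its long isoform, fell. It had 94.7 and 106 TPM in WT and 55.4 and 54.6 TPM in the knockout-labelled libraries. Both knockout-labelled values were close to each other and well below the lower WT value, with a log2 change of -0.85 (SE 0.059, adjusted p = 7.1e-04), a ratio of 1.82 in mean TPM. It lies on chromosome 7 from 25461707 to 25477603, minus strand, next to Ceacam2. Of its 50-base windows 39.2% also occur in Ceacam2 transcripts, so reads can have been divided between them, although Ceacam2 had no more than 1.91 TPM in any library and did not pass (-0.35, adjusted p = 0.13). A gene-level value does not separate the long isoform from the short ones, which lack the ITIMs. Ceacam10, which encodes a secreted relative without a cytoplasmic tail, had 104 and 113 TPM in WT and 16.9 and 15.9 TPM in the others, a fall of -2.65 (adjusted p = 2.6e-05).

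Pirb, the inhibitory member of the paired immunoglobulin-like receptors and a receptor for MHC class I, had 189 and 193 TPM in WT and 163 and 166 TPM in the knockout-labelled libraries. The groups did not overlap, with a log2 change of -0.21 (SE 0.033, 95% interval -0.29 to -0.13, adjusted p = 0.0084). Without Tet2 KO replicate 1 or 2 it did not pass (adjusted p = 0.096 and 0.075), and spike-in scaling gave -0.33 (adjusted p = 0.019). Pirb lies on chromosome 7 from 3711409 to 3720391, minus strand.

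The activating PIR-A genes were named here as relatives of Pirb after their values were seen. Of the 5 tested, 3 were called higher and none lower, beside 18.9% higher and 11.6% lower over all tested genes. Lilra6 rose from 68.1 and 70.4 to 94.5 and 87.8 TPM (0.39, adjusted p = 0.0041). Pira2 rose by 0.22 (adjusted p = 0.013), a call lost with spike-in scaling (0.10, adjusted p = 0.37) and without replicate 1 or 2 of the Tet2 KO group (adjusted p = 0.11 and 0.091). Pira6 was close to the threshold (0.23, adjusted p = 0.049) and passed under none of the 4 other scalings. Pira4 did not pass (-0.11, adjusted p = 0.64). Pira11 varied from 1.59 to 12.2 TPM between the WT libraries and did not pass (2.03, adjusted p = 0.085) except with spike-in scaling (1.94, adjusted p = 0.045) and without WT replicate 1 (0.86, adjusted p = 0.039) or WT replicate 2 (3.20, adjusted p = 0.0041). The gene model Gm14548 fell (-0.34, adjusted p = 0.016), though not without WT replicate 1 or Tet2 KO replicate 1 (adjusted p = 0.079 and 0.080). The summed level of the 5 PIR-A genes was 135 and 156 TPM in WT and 195 and 185 TPM in the others, and the ratio of Pirb to it was 1.40 and 1.24 against 0.836 and 0.899, which was not tested. Of the 50-base windows of Pirb 37.3% occur in other genes' transcripts, 21.7% in Gm14548 and 20.7% in Pira2, so the split of reads within this family is uncertain. Of the class I genes that supply the ligand of Pirb, B2m rose by 0.38 (adjusted p = 0.0040), a call lost with spike-in scaling (0.26, adjusted p = 0.066) and without replicate 1 or 2 of the Tet2 KO group (adjusted p = 0.062 and 0.055). H2-K1 was called by a small margin (0.11, adjusted p = 0.043), which among the other scalings only the quantile one kept, and which leaving out WT replicate 2 or either knockout-labelled library lost. H2-D1 did not pass (0.07, adjusted p = 0.18).

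Lilrb4a and Lilr4b, known as gp49B and gp49A, were the most abundant of the 10 and did not pass. Lilrb4a, which carries ITIMs, had 961 and 1061 TPM in WT and 951 and 970 TPM in the knockout-labelled libraries. Lilr4b, without an ITIM, had 424 and 479 TPM in WT and 442 and 438 TPM in the others. In both genes a WT library was the highest and the groups overlapped. The log2 change was -0.07 for Lilrb4a (95% interval -0.20 to 0.06, adjusted p = 0.35) and -0.04 for Lilr4b (95% interval -0.19 to 0.12, adjusted p = 0.69). Without WT replicate 1 Lilrb4a was called lower (-0.14, adjusted p = 0.042), as it was with quantile scaling (-0.16, adjusted p = 0.028), and without WT replicate 2 Lilr4b was 0.05 (adjusted p = 0.23).

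The pair made up 71.1% and 71.9% of the summed TPM of the 10 genes in WT against 74.9% and 75.1% under the knockout label. The ratio of Lilrb4a to Lilr4b lay between 2.15 and 2.27 in all 4 libraries. Their starts are 10.3 kb apart on chromosome 10 (Lilr4b from 51480632 to 51486703 and Lilrb4a from 51490956 to 51496611, plus strand), and the aligned parts of their transcripts were 96.6% identical. All windows of Lilrb4a recur in the gene model Gm49339, as do 24.3% of those of Lilr4b. Of the Lilrb4a windows 27.8% occur in Lilr4b, so the division between the 2 genes is less certain than their sum. That sum was 1386 and 1540 TPM in WT and 1393 and 1409 TPM in the others. Among genes reported to supply ligands of Lilrb4a, fibronectin (Fn1) fell from 20.0 and 20.1 to 6.57 and 6.64 TPM (-1.47, adjusted p = 1.3e-04). Apoe (0.31, adjusted p = 0.10) and the integrin subunit gene Itgav (-0.11, adjusted p = 0.31) did not pass. The integrin subunit gene Itgb3 fell by 0.28 (adjusted p = 0.010), a call lost without replicate 1 or 2 of the Tet2 KO group (adjusted p = 0.095 and 0.071).

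Pilra, the inhibitory member of the PILR pair, did not pass. It had 30.9 and 36.1 TPM in WT and 30.9 and 29.1 TPM in the knockout-labelled libraries, so 1 WT library was as low as the others. The log2 change was -0.15 (95% interval -0.35 to 0.05, adjusted p = 0.21). Pilra was called lower under spike-in scaling (-0.26, adjusted p = 0.042). Its activating neighbours on chromosome 5, Pilrb1 (-0.37, adjusted p = 0.023) and Pilrb2 (-0.33, adjusted p = 0.028), were both called lower. Both lost the call without WT replicate 2 (adjusted p = 0.085 and 0.094), without Tet2 KO replicate 1 (0.13 and 0.090) and without Tet2 KO replicate 2 (0.058 and 0.16). The ratio of Pilra to the sum of Pilrb1 and Pilrb2 was 0.761 and 0.798 in WT and 0.948 and 0.862 in the others. That the inhibitory and activating members changed by different amounts was not tested.

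Other receptors with an ITIM or a related motif also went both ways. Of 28 listed 19 were tested, of which 7 were called lower and 6 higher, beside 11.6% lower and 18.9% higher over all tested genes. The median was -0.07 beside 0.04 for all tested genes. The inhibitory Fc receptor gene Fcgr2b fell from 513 and 542 to 352 and 355 TPM (-0.57, adjusted p = 6.0e-04), and Sirpa, the receptor for CD47, fell by 0.37 (adjusted p = 0.0016). Cd300lf (-0.48, adjusted p = 0.0013) and the lectin receptor Clec4a2 (-0.65, adjusted p = 0.0010) also fell. Cd244, a receptor of the SLAM family, rose from 15.2 and 14.4 to 25.2 and 25.3 TPM (0.73, adjusted p = 6.9e-04). Clec12a was called higher (0.16, adjusted p = 0.019), but only with the deposited and quantile scalings and not without WT replicate 1 or either knockout-labelled library. Cd300a and the collagen receptor Lair1 did not pass (-0.14 and -0.07). With spike-in scaling 3 of these receptors were higher and 7 lower, and without Tet2 KO replicate 1 and replicate 2 the counts were 2 and 5, and 2 and 6.

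Activating partners and other relatives of the 10 genes, Ceacam2 and the secreted Ceacam10 among them, were mostly lower where called. Of 24 listed 22 were in the table and 19 were tested, with a median of -0.30. Of these 10 were called lower and 3 higher, beside 11.6% and 18.9% over all tested genes. The 3 were the PIR-A genes Lilra6, Pira2 and Pira6. Beside Ceacam10, the receptors Trem2 (80.2 and 78.5 to 42.8 and 46.5 TPM; -0.82, adjusted p = 4.9e-04), Cd300ld (-1.08, adjusted p = 4.8e-04) and Cd300c2 (-0.94, adjusted p = 1.9e-04) fell, and Trem1 did not pass (0.00, adjusted p = 0.95). Leaving out either knockout-labelled library gave 5 lower and 1 higher. Trem2 and the PILRB proteins signal through DAP12. Its gene Tyrobp had 1326 and 1389 TPM in WT and 1306 and 1272 TPM in the others, and passed (-0.07, adjusted p = 0.19 as deposited) only when TPM were rescaled without the granulocyte markers (-0.14, adjusted p = 0.042), among the 8 scalings and library omissions tried. The other adaptor gene, Fcer1g, fell from 376 and 416 to 282 and 287 TPM (-0.47, adjusted p = 0.0032).

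**Figure D5:**
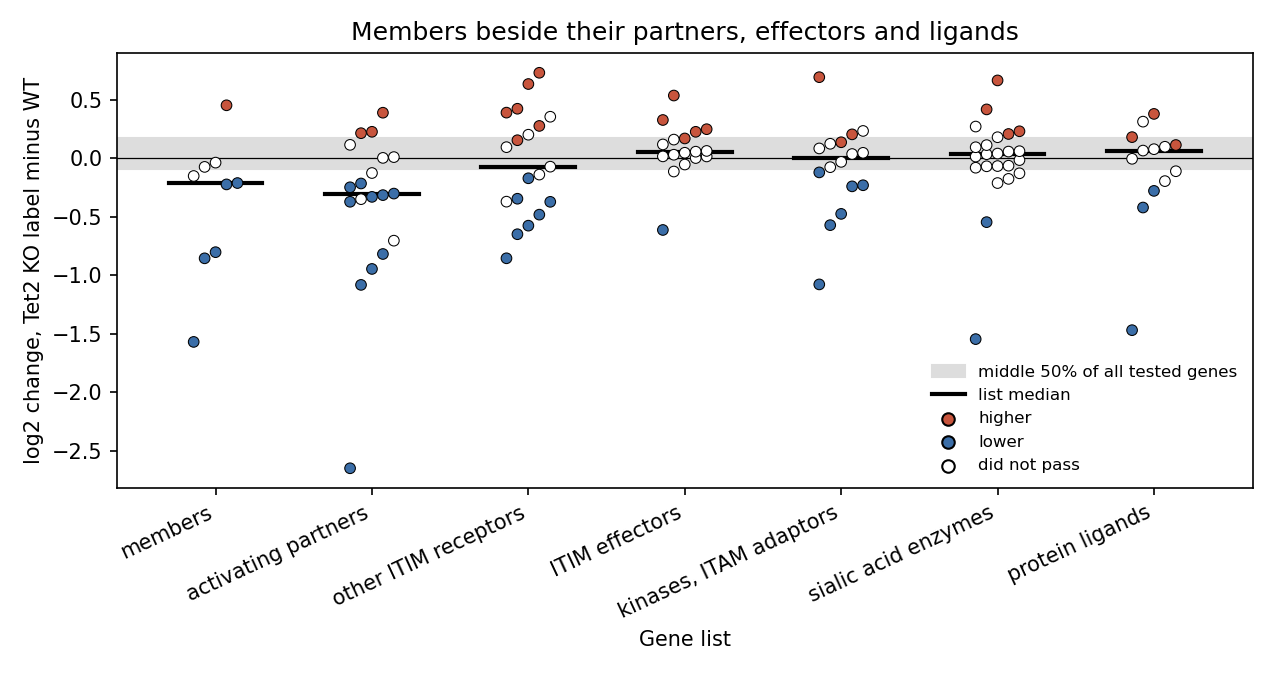
Change of each tested gene in 7 lists, as points coloured by call, with the list median as a black bar and the middle 50% of all tested genes as a grey band. The tested members (median -0.21) and the activating partners and relatives (median -0.30) lie mostly below the band. The listed effectors, sialic acid enzymes and ligands centre within it.

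Of 17 tested genes listed as ITIM effectors or related signalling genes, 5 were called higher and 1 lower. This share was near the 30.5% called over all tested genes. The 5 were Cblb, Socs3, Sh2d1b1, Ptprc and Ptpn22. The list's median was 0.06, and its counts higher and lower were 1 and 1 with spike-in scaling, 3 and 3 when rescaled without the granulocyte markers, and 1 and 1 without either knockout-labelled library. The SHP-1 gene Ptpn6 had 252 and 260 TPM in WT and 244 and 249 TPM in the others, a change of -0.05 (adjusted p = 0.29), which passed only when rescaled without the granulocyte markers (-0.12, adjusted p = 0.048). Neither Ptpn11 (0.00, adjusted p = 0.96) nor Inpp5d (0.12, adjusted p = 0.059) passed. The docking protein gene Dok2 fell from 68.6 and 69.9 to 45.8 and 44.1 TPM (-0.61, adjusted p = 5.8e-04), and Socs3 rose by 0.33 (adjusted p = 0.0033), though not with spike-in scaling (0.21, adjusted p = 0.081). Of 16 tested genes listed as kinases, activating adaptors or related signalling genes, 6 were called lower and 3 higher. Over all tested genes 11.6% were called lower and 18.9% higher. Fewer of the 16 were called without either knockout-labelled library. The Src-family kinase gene Fgr fell by 0.57 (adjusted p = 7.2e-04), Plcg1 rose by 0.69 (adjusted p = 7.1e-04) and Lyn did not pass (0.04, adjusted p = 0.55). Syk was called lower (-0.23, adjusted p = 0.0092), but not without replicate 1 or 2 of the Tet2 KO group (adjusted p = 0.083 and 0.089).

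Of 13 tested genes for protein ligands of these receptors, 3 were called higher and 3 lower, beside 18.9% higher and 11.6% lower over all tested genes. With spike-in scaling 0 were higher and 3 lower. Fewer than on the deposited values were also called without either knockout-labelled library. Genes that make, attach and remove sialic acid, the ligand of the Siglecs, were called about as often as the 30.5% of all tested genes. Of 34 listed 23 were tested, with 4 called higher, 2 lower and 17 that did not pass, with a median of 0.04. With spike-in scaling 1 was higher and 3 lower, and without Tet2 KO replicate 1 and replicate 2, 2 and 1 were higher. The synthesis gene Gne (0.04) and the transferase genes St3gal4 (0.11) and St6gal1 (0.18) did not pass. Cmah, whose enzyme makes the glycolyl form of sialic acid, was at or below 0.41 TPM in every library. The transferase gene St3gal2 rose from 18.2 and 18.6 to 29.2 and 30.3 TPM (0.67, adjusted p = 7.6e-04). St8sia1, whose enzyme adds the alpha-linked sialic acid of ganglioside GD3, fell from 5.16 and 5.62 to 1.34 and 1.05 TPM (-1.54, adjusted p = 9.2e-04). The lysosomal sialidase gene Neu1 fell from 52.6 and 55.6 to 36.5 and 37.0 TPM (-0.54, adjusted p = 0.0012).

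Patterns most like those of 2 of the genes were found by the root mean square difference of log2(TPM + 1), centred per gene, over the 4 libraries. For Siglece the nearest were Cdh1 (0.0384), Fn1 (0.0521) and Egr2 (0.0536), with changes of -1.60, -1.47 and -1.52. For Lilrb4a they were Gemin4 (0.0056), Csf3r (0.0072) and Ino80e (0.0077), none of which passed. With 4 libraries in 2 groups, such nearness follows mainly from a like difference between the groups, or a like lack of one.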

How the data were processed

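RNA-seq was measured in 2 WT and 2 Tet2 KO libraries, grouped by the sample titles. The authors deposited a table of TPM. The unit was taken from the column sums, with no common step of 1 read left. The submitters' processing notes name the mm10 build with RSEM and STAR. Versions, annotation and strand setting are not given in the sources used here. Of 24589 entries 92 are spike-ins, which were left out, and 27 have names turned into dates and were not named. TPM keep no depth, so read numbers are unknown and no counting interval is given.

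Genes reaching 1 TPM in 2 or more libraries were compared on log2(TPM + 1) with limma 3.58.1 in R 4.3.3, with a variance trend and no block, which left 2 residual degrees of freedom beside a prior of 3.51. The p-values are two-sided, adjusted by the Benjamini-Hochberg method over all 11837 genes, and the step was tested on simulated data. The pseudocount understates changes of low genes. Alternatives were other scalings, filters, pseudocounts, variance models, thresholds, a replicate block and leaving out each library. The 10 genes and the 16 lists beside them were chosen with earlier results of these data known. Of 303 listed symbols 298 matched. Named were the 10 genes, Tet2, part of the up to 4 genes with the smallest p of each list, a set fixed by name with defining markers, and the 3 nearest patterns of the most abundant and of the most significant gene; Cd22, Siglec15, the PIR-A genes, Gm14548, Nkg7, Cldnd2, Ceacam16 and Ceacam18 were chosen after their values were seen. 1 marker gene is not reported here. Gene models were GENCODE M21, upstream sequences RefSeq GRCm38.p6. Windows of 50 bases of 1 transcript a gene were compared with all GENCODE transcripts of other genes, and transcripts were aligned with Biopython 1.88.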

Additional observations from a re-analysis of the deposited data

How the results depend on the processing

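The replicate block gave 5 of the 10 genes lower and 1 higher, with 1183 and 1888 of all genes, and changed no call among the 10. Same-numbered libraries deviated with a correlation of -0.114, and a crossed replicate block, added after seeing this, called 1327 genes lower and 2136 higher. Genes called higher, 2237 as reported, were 631 with spike-in scaling, 1436 rescaled without the granulocyte markers, 839 at an adjusted p under 0.01, 66 with a minimum log2 change of 1, and 500 to 1910 with a library left out. Genes called lower, 1369 as reported, were 666 at the stricter p, 165 with the minimum change, and 515 to 995 with a library left out. Of the 10 genes, 1 was lower and 0 higher with the minimum change, and 3 to 6 were lower and 0 to 1 higher with a library left out. Lilr4b ranged from -0.12 to 0.052 with a library left out and reversed to 0.052 without WT replicate 2. Siglece ranged from -1.68 to -1.32 and was called under every alternative. Ceacam1 ranged from -0.97 to -0.77. It and Siglecg lost the call only with the minimum change, and Siglecg was not tested with the filter at 5 TPM. Fewer libraries or a stricter rule can lower such counts, but the causes of the differences between settings, scalings included, were not tested. Spike-in scaling shifted the median of all genes by -0.109. The spike-ins summed to 29764 and 33037 TPM in WT and 34136 and 33853 TPM in the knockout-labelled libraries. The WT libraries thus also differed from each other. Higher calls made up 62.0% of calls on deposited values, 47.0% after trimmed-mean scaling, 41.9% rescaled without the granulocyte markers and 29.9% with spike-in scaling. With a library left out, the lone library is assumed to vary like the others. Unknown depth limits Siglech, Siglec15 and Cd22.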

Other observations

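Beside Ceacam1 and Ceacam10, the CEACAM family held other genes that fell, picked after their values were seen. Of 16 family entries 5 were tested and 4 were called lower, against 11.6% of all tested genes, while 9 were listed at 0 in every library. Ceacam16, which encodes a protein best known from the inner ear, had 24.9 and 25.1 TPM in WT and 17.8 and 18.7 TPM in the knockout-labelled libraries (-0.44, adjusted p = 0.0031). Ceacam18 had 1.71 and 1.73 TPM against 0.49 and 0.56 TPM. The ratio of Ceacam1 to Ceacam10 was 0.911 and 0.941 in WT and 3.27 and 3.43 in the others, and this difference between the genes was not tested. Of the 50-base windows of Ceacam1, 39.2% occur in Ceacam2 and 1.3% in Ceacam10, and reads can have been divided where sequence is shared. Windows of Ceacam10, Ceacam16 and Ceacam18 were not compared.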
